A study of Sus scrofa with 12 samples.

Results

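The genes described here are 7 enzymes and regulators of energy supply, HK1, PGAM2, IDH2, SDHB, MDH2, CKMT2 and PRKAG1. They were read out of lists of N6-methyladenosine (m6A) peaks by gene symbol: every peak that the deposited annotation gives to one of the 7 genes was taken, which found all 7 among 2159 genes with a peak. They carried 23 of the 13487 listed peaks, and for 23 of 23 the gene number given to the peak names the same gene as the annotation. The study mapped m6A in the long back muscle (longissimus dorsi) of 5-day-old pigs of the Large White and Ningxiang breeds, to find modified mRNAs tied to muscle development. Each breed has 3 replicates, and each replicate has an immunoprecipitated and an input library and gave 1 peak list, so 12 samples gave 6 lists. The labels name no treatment and do not tie replicates to separate animals, so the spread behind each p-value is that between samples and may be technical.

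m6A is a methyl mark placed on adenosines inside mRNA. A writer complex sets it, reader proteins bind it, and it can alter splicing, translation and decay of the transcript. In many tissues it is found most often in long exons and near the stop codon. Muscle makes ATP along linked routes: glycolysis splits glucose in the cytosol, the citric acid cycle oxidises its carbon in mitochondria, creatine kinases pass the phosphate to the contractile filaments, and the AMP-activated kinase senses when ATP runs low. The muscle of a newborn pig is still maturing into its adult fibre types, which differ in how far they rely on glycolysis or on mitochondria.

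A listed peak means enrichment of immunoprecipitated over input reads past the authors' calling threshold. A gene without a peak fell short of that threshold and may still have carried m6A. Sequencing depth is unknown from these lists. Large White lists held 2214 to 2533 peaks and Ningxiang lists 2034 to 2222. Because the lists hold no RNA levels, a difference in the mark and a difference in the amount of its RNA cannot be told apart, and in bulk muscle neither can fewer cells of a type and less RNA per cell. Each list had peaks on 8 to 10 of 12 skeletal muscle markers, ACTA1 and TTN being the 2 with none in any list, of which TTN has no curated transcript. Of 3 liver markers 1 had a peak in Large White replicate 2 and 2 in Ningxiang replicate 3. Of 5 fat cell markers, 2 to 4 had one in a Large White list and 2 to 3 in a Ningxiang list, and of 3 red blood cell and 4 heart muscle markers, of which 1 and 2 have a curated transcript, none did. Endothelial, leukocyte and fibroblast markers, 5 of each, had a peak on 2 to 3 in every list. Curated transcripts exist for 3, 3 and 4 of them. For Schwann cells a peak was listed on 0 to 1 of 4 markers, of which 2 have a curated transcript.

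No energy gene of the 7 had a peak in all 6 lists, where 35.7% of all genes with a peak did. SDHB came nearest, with 5 lists. HK1 and PGAM2 had peaks in 4 lists, MDH2 and PRKAG1 in 3, and IDH2 and CKMT2 in 1. The median was 3 lists for the 7 genes and 4 for all genes with a peak. More of the 7 genes had a peak in Ningxiang: 4, 4 and 5 in replicates 1, 2 and 3, against 2, 2 and 4 in Large White. Their mean number in Large White was 2.67 ± 1.15 (SD, n = 3), and 4.33 ± 0.577 in Ningxiang, although the Large White lists were the longer ones, with 2373 ± 159.5 peaks against 2122 ± 94.5. As a share of the 7 this is 38.1% and 61.9%, beside 67.9% and 63.3% of all 2159 genes in a Large White and a Ningxiang list on average. Values for the 2 breeds met at 4 genes, in Large White replicate 3 and in Ningxiang replicates 1 and 2, so the breeds overlapped. No p-value is given for this number, since the genes were chosen with earlier results known.

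**Figure D1:**
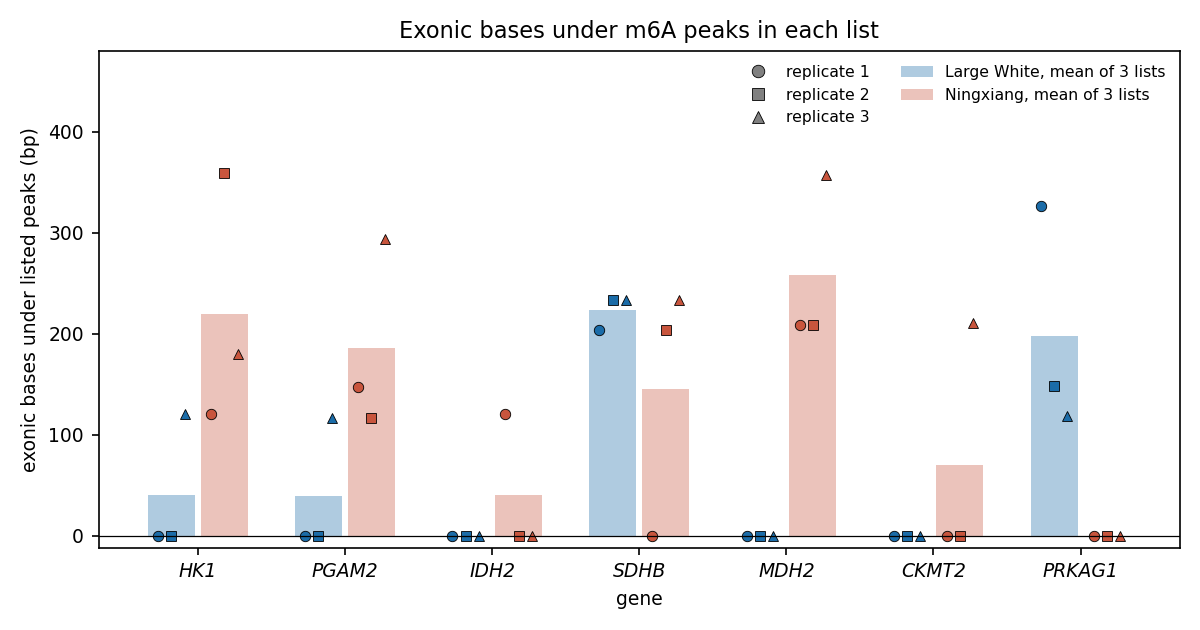
Exonic bases under listed peaks (bp, vertical axis) for each of the 7 genes (horizontal axis). Points are the 6 lists, with a shape for each replicate number, and bars are breed means of 3 lists. MDH2 has values of 209 to 357 in Ningxiang and 0 in Large White, PRKAG1 has 118 to 326 in Large White and 0 in Ningxiang, and the breeds overlap or tie for the other genes.

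To compare single genes, the exonic bases under peaks were counted in each list, with 0 where no peak was listed. Each of the 2159 genes was tested with an exact two-sided permutation test of 3 lists against 3, whose smallest possible p is 0.1, and p-values were adjusted over all genes by the Benjamini-Hochberg method. No gene can pass 0.05 in this design: 0 of 2159 genes had an unadjusted p under 0.05, and the smallest adjusted p was 0.935. The tests are therefore given for size and order, and for MDH2 and HK1 the values describe a pattern that was known when the genes were chosen.

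HK1 encodes a hexokinase, which phosphorylates glucose at the entry to glycolysis. The gene lies on the plus strand of chromosome 14, from 72383328 to 72460926 (build susScr11, as in all positions here). Its peaks covered 0, 0 and 120 exonic bases in Large White replicates 1, 2 and 3, and 120, 359 and 180 in Ningxiang. The breeds tied at 120, so they were not apart (mean 40.0 ± 69.3 and 219.7 ± 124.3 bp, SD, n = 3, exact permutation p = 0.2, adjusted p = 1).

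The HK1 peaks of the 2 breeds lay far apart in the gene. In Large White replicate 3 the peak ran from 72424193 to 72426650, over exons 4 and 5 of 19, with a fold of 1.8 over input. In Ningxiang all 3 peaks were annotated to the 3′ untranslated region and ended within 567 bases of the gene's 3′ end. These 3 peaks shared 120 bases, from 72460240 to 72460359, and no Large White list had a peak there. In replicate 2 the peak also took in a 50-base block upstream of an intron, at 72458916 to 72458965. Ningxiang folds were 1.62, 2.36 and 2.06 in replicates 1, 2 and 3. By p all 4 HK1 peaks ranked in the weaker part of their lists, with log10 p of -6.17 to -9.15 and percentiles of 27.3 to 45.6, where 100 is the lowest p of the list. Counted over genomic span in place of exonic bases, the HK1 difference reversed, because the 1 Large White peak spans 2458 bp with its intron.

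PGAM2 encodes the muscle form of phosphoglycerate mutase, which moves the phosphate of phosphoglycerate late in glycolysis, and mutations in it cause a muscle glycogen storage disease. The gene is short, 2258 bp on the plus strand of chromosome 18, from 48710492 to 48712749, with 3 exons. Its peaks covered 0, 0 and 117 exonic bases in Large White, and 147, 117 and 294 in Ningxiang (mean 39.0 ± 67.5 and 186 ± 94.7, SD, n = 3, exact permutation p = 0.2, adjusted p = 1). As with HK1, only replicate 3 of Large White had a peak and it tied with the lowest Ningxiang value.

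In every list with a PGAM2 peak it lay in the last exon and reached the last base of the gene. The 4 lists shared 117 bases there, from 48712633 to 48712749, so the 1 Large White list with a peak marked the same site as the Ningxiang lists. Ningxiang replicate 3 had another peak in exon 1, from 48710783 to 48710929, with a fold of 1.62. Of the 7 genes PGAM2 had the lowest p-values, with log10 p of -714 in Large White replicate 3 and -844 to -1850 in Ningxiang, at percentiles of 99.2 to 99.5 in their lists. Its folds were modest, at 1.62 to 2.16. The p-value of a peak depends on read number as well as on enrichment, so a peak can rank high by p and low by fold.

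Without Large White replicate 3, HK1 and PGAM2 would both have had peaks in Ningxiang alone, so that library decides whether they count as shared between the breeds.

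IDH2 encodes the mitochondrial isocitrate dehydrogenase that makes NADPH. It had 1 peak, in Ningxiang replicate 1, on the minus strand of chromosome 7 from 55659872 to 55661691, in a gene annotated from 55654299 to 55675571. The peak covered 120 exonic bases of exons 3 and 4 of 11, with a fold of 1.66 and a log10 p of -114. That put it at the 96.0 percentile of its list by p and the 2.78 percentile by fold. The other 5 lists had none, so nothing can be said of a breed (n = 3 per breed, p = 1 by the exact permutation test, adjusted p = 1).

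SDHB encodes the iron-sulphur subunit of succinate dehydrogenase, the enzyme that works both in the citric acid cycle and as complex II of the respiratory chain. It was the most regularly marked of the 7. The gene lies on the minus strand of chromosome 6, from 75648362 to 75678111. Its peaks covered 204, 233 and 233 exonic bases in Large White, and 0, 204 and 233 in Ningxiang. The breeds overlapped, with means of 223.3 ± 16.7 and 145.7 ± 127 bp (SD, n = 3, exact permutation p = 0.7, adjusted p = 1), and the wide Ningxiang spread comes from the list without a peak.

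The SDHB peaks were alike in place and size in both breeds. All 5 reached from exon 2 into exon 4 of 8 and shared 175 exonic bases, between 75657013 and 75664129. Of exon 4 the peak took in 34 bases in Large White replicate 1 and 5 in each other list with a peak. In Large White replicates 2 and 3 and in Ningxiang replicate 3 the peak also took in 14 bases of exon 1, so that its genomic span reached 21041 bp over 233 exonic bases. Folds kept to 2.02 to 2.19, the narrowest range among the genes with more than 1 peak, and log10 p ran from -61.2 to -91.8.

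MDH2 encodes the mitochondrial malate dehydrogenase, which regenerates oxaloacetate in the citric acid cycle and serves the malate-aspartate shuttle. Its peaks covered 0 exonic bases in each Large White list, and 209, 209 and 357 in Ningxiang replicates 1, 2 and 3. The groups did not overlap, with a Ningxiang mean of 258.3 ± 85.4 bp (SD, n = 3, exact permutation p = 0.1, adjusted p = 0.935 over all genes). Every Ningxiang list was above every Large White list for 2.92% of all genes, and for 1 of the 7. MDH2 was also the 1 member with a peak in 3 of 3 Ningxiang lists and 0 of 3 Large White lists, a pattern met by 0.741% of all genes with a peak. The gene was chosen with this pattern known.

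The MDH2 peaks lay at the start of the transcript. The gene runs from 10120121 to 10132705 on the minus strand of chromosome 3, and each peak began at its first base, 10132705. All 3 covered the same 119 bases of exon 1 and at least 90 bases of exon 2 of 9, 209 shared bases in all. In replicate 3 the peak covered 169 bases of exon 2 and 69 of exon 3. A peak that reaches the 5′ end of its gene is uncommon here, with 3.88% of all peaks. Log10 p was -114, -109 and -544 in replicates 1, 2 and 3, above the 95 percentile of each list. Folds were 2, 2.01 and 6.15, so replicate 3 stood apart, at the 92.6 percentile by fold where the other 2 were at 25.3 and 21.5. MDH2 kept this pattern under every cut of the lists and without any 1 replicate, but most of these checks could not have failed. Leaving out a list cannot end a pattern of every list in 1 breed and none in the other. No cut can add a Large White peak. Peaks above the 95 percentile by p also stay when 50% are kept by p or when list lengths are made equal. Only the cut at folds of 2 or more could have removed them, and replicates 1 and 2 passed it narrowly, with folds of 2 and 2.01.

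**Figure D2:**
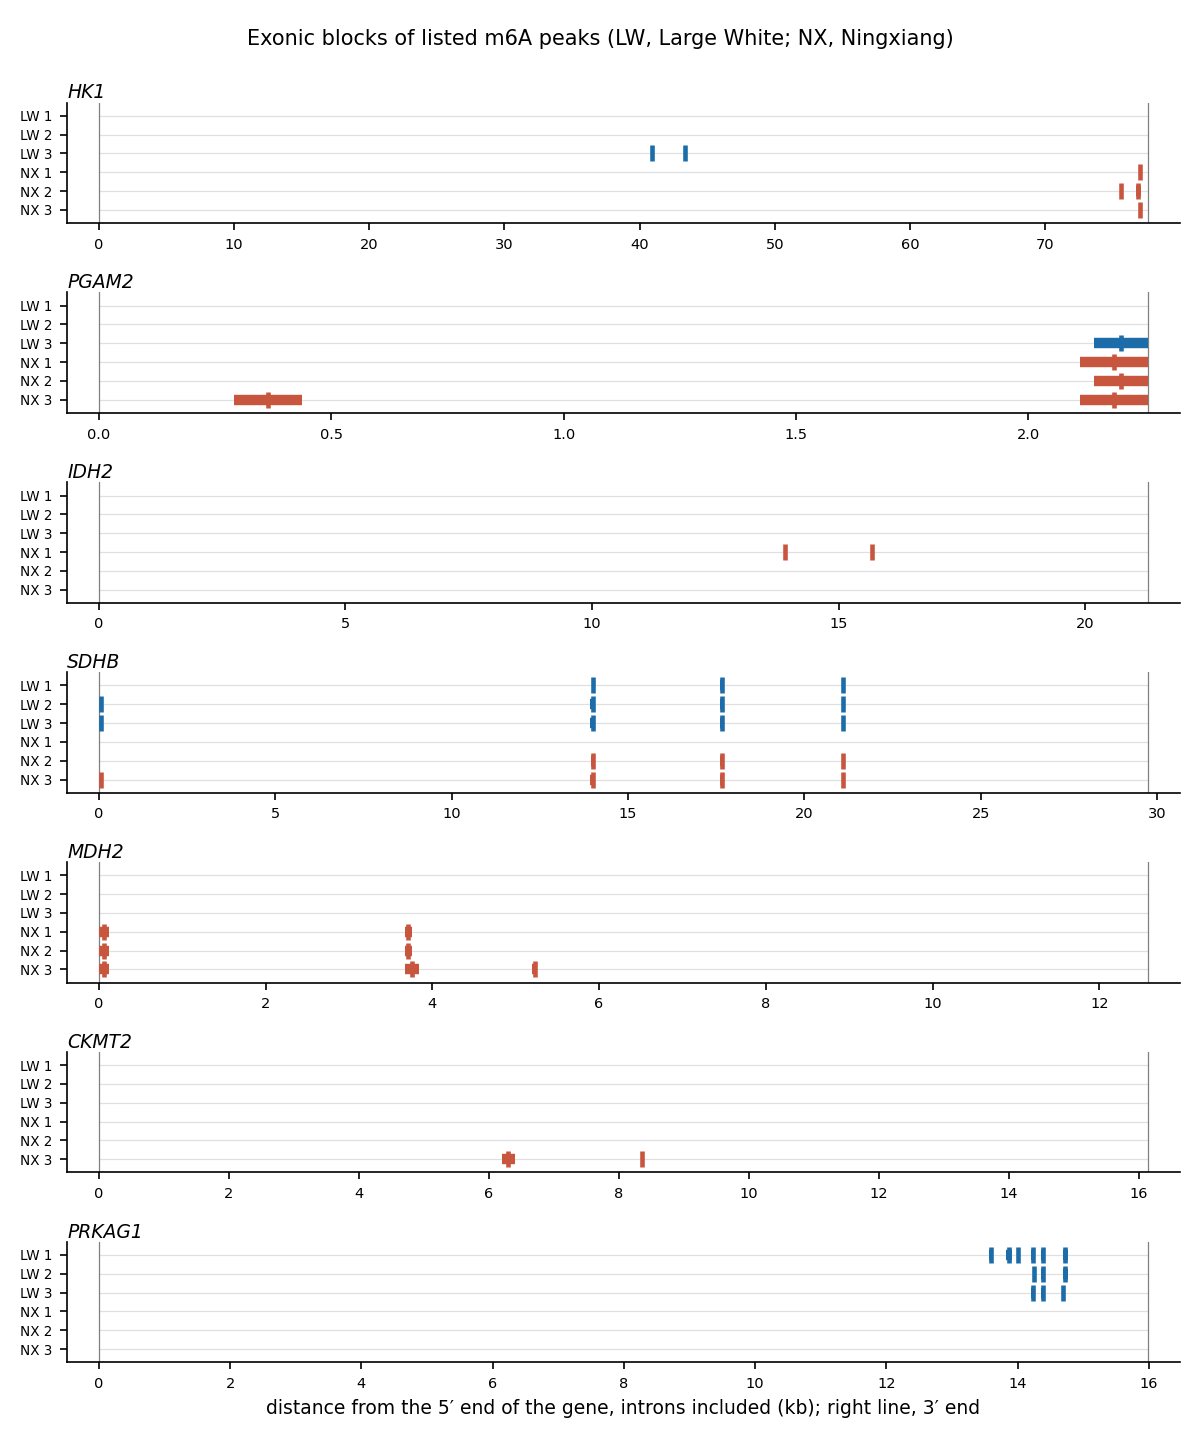
Position of the exonic blocks of each peak along the 7 genes, as distance from the gene's 5′ end in kb with introns included (horizontal axis), with a row for each list. Ticks mark block centres and are wider than the shortest blocks. The MDH2 blocks sit at the 5′ end in the 3 Ningxiang rows, the SDHB blocks line up in 5 rows, the PRKAG1 blocks appear in the 3 Large White rows only, and the HK1 blocks of Large White and Ningxiang do not meet.

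CKMT2 encodes the sarcomeric mitochondrial creatine kinase, which charges creatine with phosphate from newly made ATP. It had 1 peak, in Ningxiang replicate 3, on the plus strand of chromosome 2 from 89820346 to 89822508, in a gene annotated from 89814141 to 89830288. The peak covered 211 exonic bases, 199 in exon 4 and 12 in exon 5 of 9. Its fold was 2.43 and its log10 p -170, at the 96.9 percentile of the list by p and the 42.3 by fold. The exact permutation p for the breeds was 1 (n = 3 per breed, adjusted p = 1).

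PRKAG1 encodes a gamma subunit of the AMP-activated kinase, the part that binds AMP and ATP. Its peaks covered 326, 148 and 118 exonic bases in Large White replicates 1, 2 and 3, and 0 in each Ningxiang list. The groups did not overlap, with a Large White mean of 197.3 ± 112.4 bp (SD, n = 3, exact permutation p = 0.1, adjusted p = 0.935 over all genes). Every Large White list was above every Ningxiang list for 7.78% of all genes, and for 1 of the 7. PRKAG1 was the 1 member with a peak in 3 of 3 Large White lists and 0 of 3 Ningxiang lists, which held for 1.34% of all genes with a peak.

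The gene lies on the minus strand of chromosome 5, from 15033629 to 15049619. In each Large White list a peak crossed exons 6 to 8 of 12, and the 3 shared 89 exonic bases between 15034913 and 15035380. Replicate 1 had another peak over exons 3 to 5, from 15035608 to 15036056. It covered the most exonic bases with that peak and also without it, at 177 against 148 and 118. Unlike those of MDH2, the PRKAG1 peaks were weak by p. The log10 p of the shared peak was -7.29, -4.25 and -4.46 in replicates 1, 2 and 3, or the 37.4, 15.0 and 14.3 percentile, and that of the other peak of replicate 1 was -3.29. Folds were 1.79 to 2.18, beside 2, 2.01 and 6.15 for MDH2 in Ningxiang replicates 1, 2 and 3. With equal numbers of peaks from every list, or with folds of 2 or more, the peak of Large White replicate 3 dropped out and 2 of 3 lists remained, and with the stronger 50% by p no PRKAG1 peak was left in any list.

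At the scale of single exonic regions, merged over all 6 lists, the 7 genes held 23 of 9335 regions. Of these, 3 were covered in every Ningxiang list and no Large White list, where 0.686% of all regions were: exons 1 and 2 of MDH2 and the 3′ region of HK1, which merged to 339 bases. Another 3 were covered in every Large White list and no Ningxiang list, where 1.78% of all regions were, and all of them belong to the PRKAG1 peak over exons 6 to 8. A peak over several exons gives several regions, so these 6 regions stand for 3 sites, 1 in each gene. MDH2 and HK1 were chosen with their breed pattern known, so their 3 regions describe that choice and do not test it. When a list had to cover at least 50% of a region to count, the HK1 region and 2 of the 3 PRKAG1 regions were lost, and 3 regions remained, exons 1 and 2 of MDH2 and 1 of PRKAG1.

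The 23 peaks were mostly low in fold and split in rank by p. In their own lists 22 of 23 lay below the median by fold, the exception being MDH2 in Ningxiang replicate 3, and the median percentile by fold was 24.4. Their median fold was 2.06, against 2.53 over all peaks. By p, 15 of 23 lay above the list median. PGAM2, MDH2, IDH2, SDHB and CKMT2 had every peak above the 90 percentile, and HK1 and PRKAG1 had every peak below the 46 percentile, with none between. Peaks on a gene share its transcript, so these counts are a description and not a test.

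**Figure D3:**
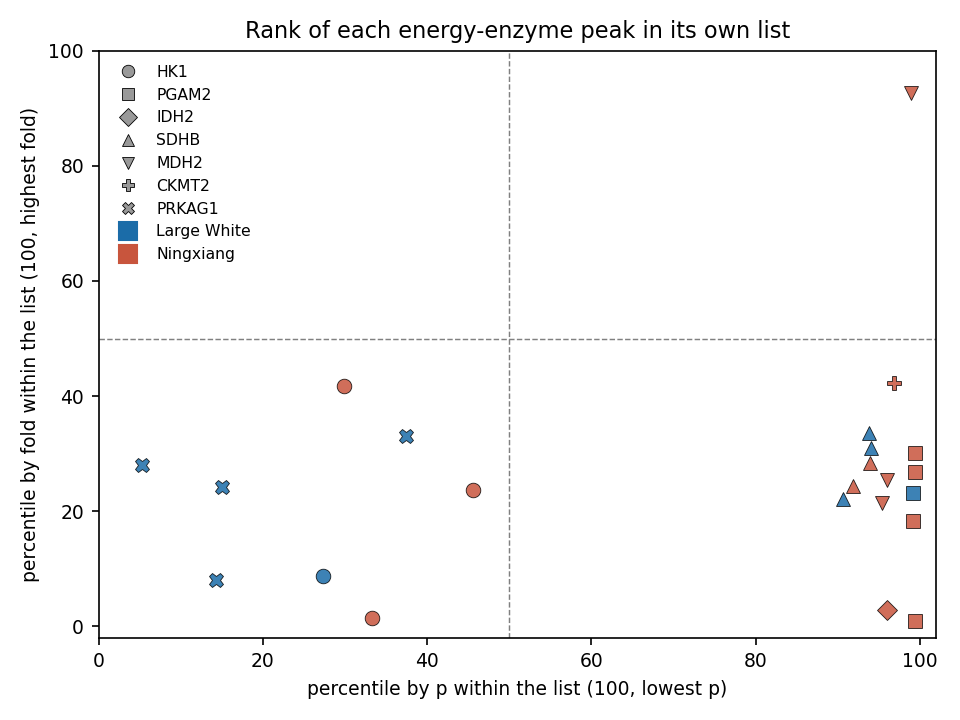
Rank of each of the 23 peaks within its own list, by p (horizontal axis, 100 for the lowest p) and by fold (vertical axis, 100 for the highest fold), with a marker for each gene and a colour for each breed. Dashed lines mark the 50 percentile. The peaks form 2 groups by p, HK1 and PRKAG1 on the left and the other 5 genes on the right, and 1 MDH2 peak stands above the line by fold.

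A peak crossed a splice junction in 16 of 23 cases (69.6%), against 56.5% of all peaks. Their median exonic length was 177 bases, against 210 over all peaks. In 10 of 23 peaks the midpoint fell within the 10% of the gene nearest its 3′ end (43.5%, with 35.6% for peaks in general). Of those 10 none belongs to SDHB, MDH2, IDH2 or CKMT2: 4 are on PGAM2, 3 are Ningxiang peaks on HK1 and 3 are on PRKAG1. This length includes introns and does not give the exon: the PRKAG1 peaks lay in exons 3 to 8 of 12, and the Large White peak of HK1 in exons 4 and 5 of 19.

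The wider energy pathways show which neighbours in metabolism were marked. The 8 lists of energy genes hold 143 genes, of which 70 have a curated RefSeq transcript under these names and could be annotated with a peak. Of the 70, 35 had a peak in any list (50%), beside 53.4% of all curated genes. Of these 35, 13 had one in all 6 lists (37.1%), beside 35.7% of all genes with a peak. The 7 members, all with a peak by choice, are part of this count and of the counts by list. Without them 28 of 63 had a peak (44.4%), and 13 of the 28 had one in all 6 lists (46.4%). The glycolysis list was sparsely marked: 3 of 15 genes had a peak, the members HK1 and PGAM2 and the regulator PFKFB1, which catalyses no step itself. GAPDH, ENO3, LDHA, PFKM, PGK1, TPI1 and GPI, which catalyse steps between or after those of HK1 and PGAM2, and the hexokinase HK2 had none in any list. On the list for the respiratory chain and ATP synthase 2 of 11 had a peak, UCP2 and UCP3, which are uncoupling proteins and not chain subunits. That list is not complete: SDHB is counted with the citric acid cycle, and UQCRB, a subunit of complex III with peaks in 5 lists, is not on it. Its ATP synthase genes have no curated transcript under the names used, so peaks on them could not be counted.

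The citric acid cycle had 6 of 10 genes with a peak. Besides the 3 members these included DLST, a subunit of oxoglutarate dehydrogenase, and FH, fumarase, each in all 6 lists. CS, the citrate synthase, IDH3B, SDHD and SUCLG1 had none. MDH1, the cytosolic partner of MDH2, had no peak in any list either. Of the AMP-activated kinase, 5 of 6 genes had one: both catalytic subunits, PRKAA1 and PRKAA2, in all 6 lists, and PRKAB1 and PRKAG3 in 2 Large White lists and 1 Ningxiang list. PRKAG1 was thus the 1 subunit gene of this kinase listed in a single breed. Of the phosphate transfer genes CKM, the cytosolic creatine kinase of muscle, had a peak in all 6 lists while CKMT2 had its 1. No other gene on the 8 lists was marked in all lists of one breed and none of the other.

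**Figure D4:**
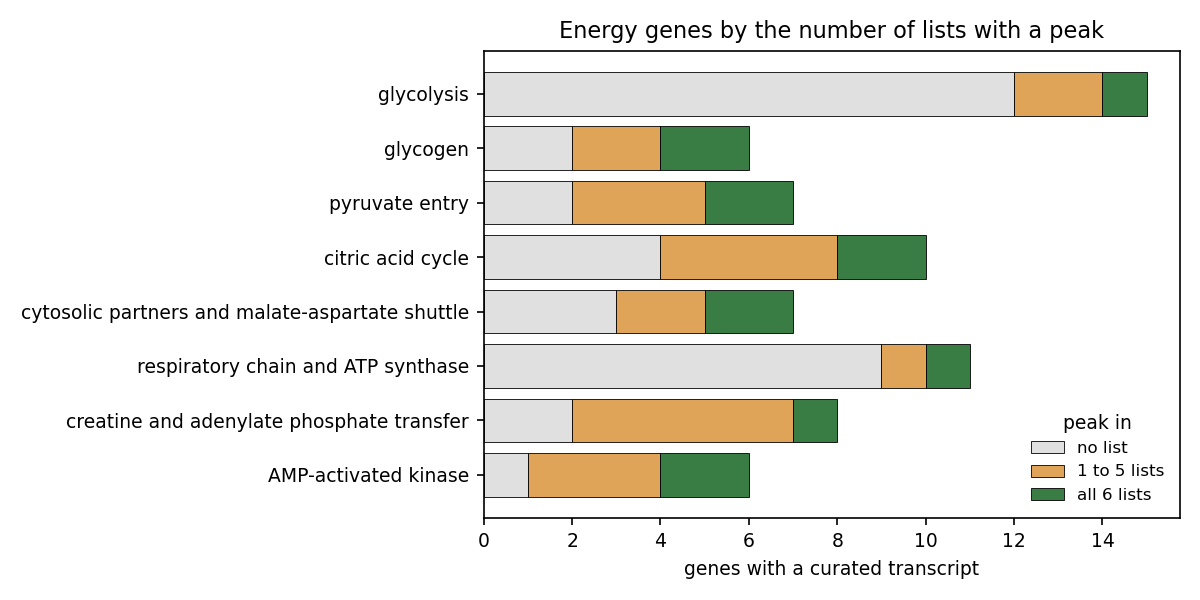
Genes of the 8 energy lists that have a curated transcript (horizontal axis, number of genes), coloured by whether they had a peak in no list, in 1 to 5 lists or in all 6. The glycolysis list and the respiratory chain list hold the most genes without a peak, 12 of 15 and 9 of 11.

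Among the 10 other energy genes with a peak in all 6 lists and the highest minimum of the best fold, PRKAA1 led, with best folds of 4.1 to 7.95. UCP2 followed at 2.66 to 9.3, then GYS1, the muscle glycogen synthase, at 2.63 to 3.31, DLAT, a subunit of pyruvate dehydrogenase, at 2.51 to 3.95, and PRKAA2 at 2.16 to 4.44. PFKFB1 reached 2.91, ME3, a mitochondrial malic enzyme, 3.38, DLST 2.2, ACLY, the ATP citrate lyase, 2.65, and CKM 1.93. These folds are the authors' values for each list and do not compare methylation between breeds. Best folds of the 7 members stayed at or below 2.43, except that of MDH2 in Ningxiang replicate 3. The 10 genes were taken for high folds, so they are no measure of energy genes at large. Of the energy genes with a peak in all 6 lists that were left out, PC reached 2.68, FH 2.02 and PGM1 1.76.

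The genes most like each member were found by the percentile of the lowest-p peak in each of the 6 lists, with 0 where no peak was listed. For MDH2 the nearest was SERPINH1, which folds collagen, at a Euclidean distance of 5.48 percentile points over 6 lists. For PGAM2 it was SERF2 at 5.48, for HK1 TPRG1L at 6.55, and for SDHB UQCRB, a subunit of respiratory complex III, at 6.22. For the genes with 1 peak the nearest were UBB, a ubiquitin gene, to IDH2 at 1.35 and RPL35, a ribosomal protein gene, to CKMT2 at 1.62. Both neighbours had peaks only in the 1 list where the member did. These 2 distances thus rest on 1 list each and cannot be set beside the others. PRKAG1 had the most distant neighbour, COMMD6 at 9.47, which also had weak peaks in Ningxiang replicates 1 and 2.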

How the data were processed

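Each deposited list was assigned to the immunoprecipitated sample whose description names it. Per the submitters' processing notes, FastQC 0.11.9, ChIPseeker 1.30.2 and HOMER were used with build susScr11; no source used here names the aligner or the peak caller. Per the file headers, each deposited peak has a fold enrichment, that is, the ratio of signal with the antibody to signal in input. The deposited p-value and its log10, used here as a ranking score, describe the same peak. Both are the authors' values and were used within a list only. Starts count from 0, so 1 was added. Exons of minus-strand genes were renumbered from the 5′ end, and a peak's blocks were taken as consecutive exons from the numbered one; of 265 peaks over junctions that end on the gene's last coordinate, 263 ended in the last numbered exon.

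A 1 bp overlap counted as shared. Gene names and curated transcripts came from RefSeq on Sscrofa11.1, where all 7 symbols were found. Python 3.11.15, pandas 2.3.3, NumPy 2.4.6 and Matplotlib 3.10.9 were used, and the counting was tested on simulated lists. The members and gene lists were chosen with earlier results of these data known. For that reason p-values were adjusted over all 2159 genes and not over the 7, and counts over the 7 genes carry no p, both departures from the plan. Named genes were the 7 members, breed-only genes of the energy lists, up to 10 energy genes with a peak in all 6 lists by highest minimum best fold, and the nearest gene to each member. Other genes are named as members of a count, after their values were seen. Alternatives were the stronger 50% of peaks by p, folds of 2 or more, equal list lengths, leaving out each replicate, a replicate block, genomic span and a 50% overlap.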

Additional observations from a re-analysis of the deposited data

How the results depend on the processing

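The count of members marked in 1 breed only, 2 with all peaks, fell to 1, MDH2, with the 50% of peaks lowest in p, with folds of 2 or more and with equal list lengths; PRKAG1 was the gene lost. Over all genes the Large White only and Ningxiang only counts, 29 and 16 with all peaks, were then 24 and 9, 23 and 14, and 23 and 28. The count of members whose exonic bases did not overlap between breeds likewise went from 2 to 1 in each of these settings. Breed-only exonic regions went from 6 to 2 with the stronger 50%, 2 with folds of 2 or more, and 3 with equal list lengths, with merged genomic spans and with the 50% overlap. Energy genes with a peak in all 6 lists went from 13 to 9 with the stronger 50% by p and to 5 with folds of 2 or more. The count over all genes, 771 with all peaks, is not given under these cuts, so the fall cannot be called particular to energy genes. Dropping a list can only keep or raise the count of members marked in 1 breed only and the count that did not overlap. Both were 2 to 4, the 4 without Large White replicate 3. Over all genes the breed-only counts rose each time a replicate was left out. They were 44 to 69 for Large White only and 22 to 41 for Ningxiang only, and 50 and 41 without Large White replicate 3. For exonic bases that did not overlap, shares over all genes are given with all peaks only. Leaving out each replicate gave 0 to 1 members with a peak in every remaining list, the 1 being SDHB without Ningxiang replicate 1. The HK1 difference of Large White minus Ningxiang, -179.7 exonic bases, became 238 bp over genomic spans. The difference in members with a peak per list stayed negative throughout, at -1.33 to -2.33 against -1.67. With the replicate block it was again -1.67. In that setting 4 members, HK1, PGAM2, MDH2 and PRKAG1, differed in 1 direction in 3 of 3 numbered pairs (smallest exact sign-flip permutation p 0.25). The share of all genes that did so is not given, so whether 4 members is more than usual cannot be said. Over 2159 genes the deviations of same-numbered lists correlated at 0.0425, 0.0506 and 0.0222, so the numbers were not taken as pairs. Where a list shows no peak, read depth and RNA level were not available to limit how much m6A it could have had.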
